A study of Mus musculus with 6 samples.

Results

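The levels of 9 transcription factor genes of the osteoblast lineage were followed in osteoblasts, the cells that build bone. They are Runx1, Runx2 and Runx3, Sp7 (which encodes osterix), Dlx3, Dlx5 and Dlx6, and Msx1 and Msx2. They were taken by symbol from a table of 27179 gene IDs, and all 9 were found. The cells were freed with collagenase from the skull vault (calvaria) of C57Bl/6J mouse pups aged 5 days, and were sorted for GFP, a transgene switched on through Osteocalcin-Cre, a recombinase made in mature osteoblasts. RNA sequencing gave 3 libraries with the genotype label Cdc73/Hrpt2 KO, whose titles say Flox and whose protocol says cKO, and 3 labelled wildtype, named below knockout and wildtype with their replicate numbers. The product of Cdc73, parafibromin, works in the Paf1 complex, which accompanies RNA polymerase II along genes. The sort was uniform over both genotypes per the labels' protocols, which do not state whether a library is 1 pup or a pool, so p-values measure the spread between libraries, which may be partly technical.

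Runx2 is the factor without which no osteoblasts form in mice, and Sp7 is needed in the next step, when committed cells become osteoblasts. Runx proteins bind DNA through the Runt domain together with the partner Cbfb, while Dlx and Msx proteins are homeodomain factors that answer to bone morphogenetic protein (BMP) signals and act on Runx2, Sp7 and matrix genes. Msx2 is generally placed in less mature osteogenic cells and Dlx3, Dlx5 and Dlx6 in cells that move on to matrix production. Runx1 and Runx3 are also major factors of blood cells, and Runx2 and Runx3 act in maturing cartilage, so cell types other than osteoblasts can contribute to these counts.

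The 3 Runx genes can be compared by the sequence at their distal start sites, shown because these genes share a motif there. The promoters, of 250 bases before and 50 after a start site, are from RefSeq on GRCm38.p6. Entries were found for 5 of the 9 members (7 promoters), and Sp7, Dlx3, Dlx5 and Dlx6 had none. Capitals mark the Runx core TGTGGT or its reverse complement ACCACA, searched on both strands.
Runx1, chr16:92826025-92826324, minus strand: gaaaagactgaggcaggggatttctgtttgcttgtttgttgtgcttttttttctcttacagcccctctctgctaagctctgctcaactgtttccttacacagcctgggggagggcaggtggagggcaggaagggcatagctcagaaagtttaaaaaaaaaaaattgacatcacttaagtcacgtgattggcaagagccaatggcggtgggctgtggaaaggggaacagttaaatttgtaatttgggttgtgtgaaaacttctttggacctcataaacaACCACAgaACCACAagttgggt
Runx2, chr17:44814578-44814877, minus strand: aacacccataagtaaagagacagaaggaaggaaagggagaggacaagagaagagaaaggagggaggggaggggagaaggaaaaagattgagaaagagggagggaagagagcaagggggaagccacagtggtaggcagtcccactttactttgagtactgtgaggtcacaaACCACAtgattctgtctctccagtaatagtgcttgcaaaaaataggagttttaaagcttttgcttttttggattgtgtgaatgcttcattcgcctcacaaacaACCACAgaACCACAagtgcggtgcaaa
Runx3, chr4:135120395-135120694, plus strand: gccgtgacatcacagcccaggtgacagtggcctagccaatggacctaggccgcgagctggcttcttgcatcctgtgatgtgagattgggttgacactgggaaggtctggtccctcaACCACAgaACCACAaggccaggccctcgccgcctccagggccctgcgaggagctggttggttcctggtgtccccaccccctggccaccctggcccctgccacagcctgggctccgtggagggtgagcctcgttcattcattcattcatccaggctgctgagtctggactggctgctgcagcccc
The core lies in 16.8% of the 32851 promoters of the table. Each of the 3 sequences holds a pair of cores on 1 strand, 2 bases apart, an arrangement found in 7 of the 32851 promoters (0.0213%), of which these are 3. That share includes these 3 and is not a background independent of them. The longest run that all 3 share is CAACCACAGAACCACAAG, 18 bases long. The pair begins 28 bases after the start site in Runx1, 23 bases after it in Runx2 and 134 bases before it in Runx3. The second listed promoters of Runx1 and Runx3 and those of Msx1 and Msx2 hold no such core. TAATTG, a form of the homeodomain core, was searched on both strands. It is present in 8% of all promoters and in none of the 7. Other forms of that core were not searched. The counts cover whole genes and do not tell one promoter's transcripts from another's.

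The libraries held 14837272 to 16380767 counts in knockout and 13591925 to 20993962 in wildtype, and the members took 0.04% to 0.043% of them in knockout and 0.0542% to 0.0634% in wildtype. These shares are not corrected for library composition. With library size alone, the median log2 fold change of knockout over wildtype was itself -0.21 over all genes. The targeted gene, Cdc73 (gene ID 214498, chromosome 1, 143603276 to 143702893), measured 14, 14.7 and 14.4 CPM in knockout 1, 2 and 3, against 20.5, 12.8 and 21.7 CPM in wildtype 1, 2 and 3 (CPM, counts scaled to library size after TMM, a correction for library composition). Its log2 fold change was -0.36 ± 0.22 (SE), adjusted p = 0.428 in edgeR's quasi-likelihood test. The groups overlapped, and a count over the whole gene does not check each label. Osteoblast genes were abundant in every library. The summed level of 10 osteoblast markers was 247418 to 365616 CPM in knockout and 291576 to 323457 CPM in wildtype, and none of them was at 0. That sum rests mostly on Col1a1 and Col1a2. Of the 10 markers, 8 had a negative fold change and 2 a positive one, and the groups overlapped for each. Their median log2 fold change was -0.25, beside -0.01 over all genes, and was -0.50 without knockout 3 and -0.06 without wildtype 3. Markers of several other cell types were present in both groups, most with higher values in knockout, and none passed the adjusted threshold in edgeR's test. All 14 chondrocyte markers had a positive fold change (sum 11907 to 26891 CPM in knockout, 3566 to 10175 CPM in wildtype), as had all 14 macrophage markers (sum 179 to 419 CPM in knockout, 107 to 153 CPM in wildtype) and all 11 endothelial markers (sum 136 to 240 CPM in knockout, 53.2 to 139 CPM in wildtype), with no marker of these 3 lists at 0 in a whole group. Fold changes were also positive for 6 of 7 tested osteoclast markers (543 to 653 CPM in knockout, 425 to 613 CPM in wildtype), 9 of 9 neutrophil markers (55.4 to 189 CPM in knockout, 20 to 54.8 CPM in wildtype), 7 of 7 tested erythroid markers (50.8 to 405 CPM in knockout, 17.5 to 115 CPM in wildtype) and 6 of 7 tested markers of megakaryocytes and mast cells (21.4 to 58.6 CPM in knockout, 14.7 to 26.9 CPM in wildtype). Suture mesenchyme markers (6 of 11 positive, 11185 to 14327 CPM in knockout, 9871 to 20111 CPM in wildtype) and osteocyte markers (5 of 8 tested positive, 516 to 627 CPM in knockout, 425 to 574 CPM in wildtype) overlapped, while 11 of 12 proliferation markers were lower in every knockout library (262 to 282 CPM in knockout, 348 to 382 CPM in wildtype). Over all genes, 9.81% were lower in every knockout library than in every wildtype library. The marker sums include markers too low to be tested. The part of these cell types in the members' values was not tested. In such bulk samples, fewer cells of a type and less RNA per cell cannot be told apart.

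Across the 9 members, the osteoblast factors Sp7, Dlx5 and Dlx6 had all knockout libraries below all wildtype libraries, Dlx3 leaned the same way with overlap, Runx2, Runx3, Msx1 and Msx2 showed no separation, and Runx1 was higher on average. None of the 9 passed the threshold of an adjusted p under 0.05 with edgeR's quasi-likelihood test, adjusted over 13505 genes, nor did any other gene (0% of genes). At an unadjusted p under 0.05, Sp7 and Dlx6 were lower and Runx1 was higher, against 6.35% of all genes lower and 8.26% higher. Limma voom called 0 members, while DESeq2 called Sp7 (1.84% of all genes called) and edgeR with the replicate number as a block called Dlx6 (1.75%). Without wildtype 1, when edgeR called 2.96% of genes, and without the filter on low counts, when it called 0.121%, no member was called. Lack of overlap towards lower values, seen for 3 members, was found in 9.81% of all genes, and lack of overlap towards higher values, seen for 0 members, in 10.6%, together 20.4%. The members' median log2 fold change was -0.16, beside -0.01 over all genes. The members' median was 0.02 without wildtype 1, -0.02 without knockout 1, -0.24 without wildtype 3 and -0.40 without knockout 3. With all libraries it was -0.40 with library size alone, beside -0.21 over all genes. With osteoblast marker scaling it was 0.00, beside 0.25 over all genes.

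**Figure D1:**
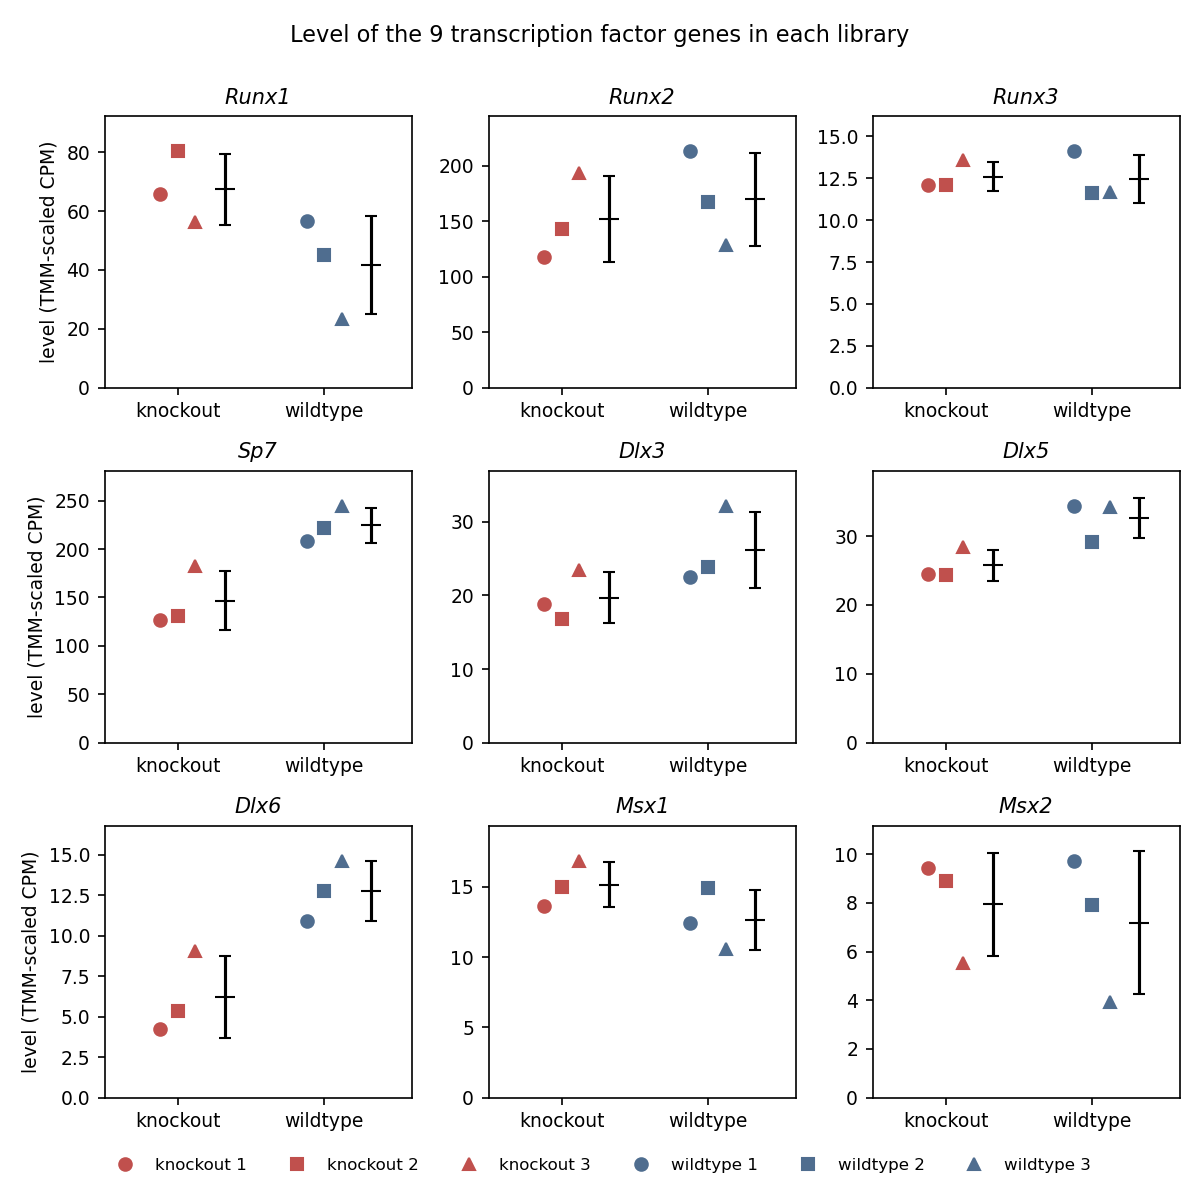
Level of each member in TMM-scaled CPM on a linear axis from 0, with 1 point per library (knockout left, wildtype right) and the mean ± SD of 3 libraries beside the points. Sp7, Dlx5 and Dlx6 show no overlap between the groups, with Sp7 at 127 to 182 CPM in knockout and 208 to 244 CPM in wildtype.

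Runx2 (gene ID 12393, chromosome 17, 44495987 to 44814797, minus strand), the master factor of the lineage, did not separate the groups. It measured 118, 143 and 194 CPM in knockout 1, 2 and 3, against 213, 167 and 129 CPM in wildtype 1, 2 and 3. Knockout 3 lay above wildtype 2 and 3, and wildtype 3 lay below knockout 2 and 3, so the spread within each group was wider than the gap between the means of 152 ± 39.1 CPM in knockout and 170 ± 42 CPM in wildtype (SD, n = 3 each). The log2 fold change was -0.16 ± 0.24 (95% interval -0.70 to 0.37, adjusted p = 0.739 in edgeR's test), which leaves room for changes of either sign. The sign itself turned when wildtype 1 was left out (0.02). Annotated exons of the antisense gene Runx2os1 cover 5.87% of the exon bases of Runx2, and since strand use in counting is not given in the sources used here, reads there cannot be assigned.

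Sp7 (gene ID 170574, chromosome 15, 102356603 to 102367035, minus strand), the zinc finger factor osterix, was the most abundant member per length and had lower values in knockout. It measured 127, 131 and 182 CPM in knockout 1, 2 and 3, against 208, 222 and 244 CPM in wildtype 1, 2 and 3. Every knockout library was below every wildtype library, and knockout 3 came closest to them. The means of 147 ± 30.4 CPM in knockout and 225 ± 18.2 CPM in wildtype (SD, n = 3 each) correspond to 0.652 of the wildtype level, a log2 fold change of -0.62 ± 0.19 (95% interval -1.04 to -0.20, adjusted p = 0.277 in edgeR's test and 0.0496 in DESeq2's). Without wildtype 1 it was -0.69 (adjusted p = 0.0839 in edgeR's test), and without knockout 2 it was -0.54 (adjusted p = 0.828 in edgeR's test). These were the lowest and highest adjusted p as each library was left out. When the libraries were scaled by the 10 osteoblast markers in place of TMM, the log2 fold change was -0.39 (adjusted p = 0.738 in edgeR's test), with the median of all genes moved to 0.25. The summed osteoblast marker level overlapped between the groups, and its highest value was also in knockout 3.

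Dlx6 (gene ID 13396, chromosome 6, 6863334 to 6867970, plus strand), a homeobox gene that acts with its neighbour Dlx5 in jaw and bone formation, had the widest gap of the 9. It measured 4.26, 5.35 and 9.05 CPM in knockout 1, 2 and 3, against 10.9, 12.8 and 14.6 CPM in wildtype 1, 2 and 3. No knockout library reached the lowest wildtype library, and the values within knockout themselves spanned from 71 to 110 counts. Its mean of 6.22 ± 2.51 CPM in knockout, against 12.8 ± 1.82 CPM in wildtype (SD, n = 3 each), was 0.485 of the wildtype level, with a log2 fold change of -1.05 ± 0.29 (95% interval -1.69 to -0.41, adjusted p = 0.273 in edgeR's test). The log2 fold change ran from -1.43 to -0.84 as each library was left out. It was -1.17 without wildtype 1 (adjusted p = 0.069 in edgeR's test) and -0.95 without knockout 2 (adjusted p = 0.828 in edgeR's test). These were the lowest and highest adjusted p of those fits. Exons of the antisense gene Dlx6os2 cover 4.38% of the exon bases of Dlx6, and those of Dlx6os1 none. Dlx6os1, a noncoding RNA read from the opposite strand across this locus, measured 3.02 ± 0.311 CPM in knockout and 3.39 ± 0.691 CPM in wildtype (log2 fold change -0.17 ± 0.31).

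Dlx5 (gene ID 13395, chromosome 6, 6877801 to 6882068, minus strand) lies beside Dlx6 on the opposite strand and is a BMP-induced activator of osteoblast genes. It measured 24.5, 24.3 and 28.4 CPM in knockout 1, 2 and 3, against 34.3, 29.2 and 34.2 CPM in wildtype 1, 2 and 3. The groups did not overlap, but knockout 3 and wildtype 2 were nearly level. The log2 fold change was -0.34 ± 0.16 (95% interval -0.69 to 0.01, adjusted p = 0.349 in edgeR's test). It was -0.10 with osteoblast marker scaling, which moved the median of all genes from -0.01 to 0.25. Dlx3 (gene ID 13393, chromosome 11, 95120117 to 95125296, plus strand), a factor of osteoblasts, hair and teeth, measured 18.8, 16.8 and 23.5 CPM in knockout 1, 2 and 3, against 22.5, 23.9 and 32.1 CPM in wildtype 1, 2 and 3. Knockout 3 lay above wildtype 1, and the highest value was in wildtype 3. The log2 fold change of Dlx3 was -0.41 ± 0.20 (95% interval -0.86 to 0.04, adjusted p = 0.369 in edgeR's test), ran from -0.57 to -0.24 (without wildtype 3) as each library was left out, and was -0.15 with osteoblast marker scaling and -0.20 with wildtype 1 as the only control. Dlx3 is also an epidermal gene, and the 9 epidermal markers summed to 4.59 to 6.17 CPM in knockout and 3.46 to 4.73 CPM in wildtype, with Trp63 at 0 in all wildtype libraries.

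Msx1 (gene ID 17701, chromosome 5, 37820491 to 37824585, minus strand), a homeobox factor of craniofacial progenitor cells, measured 13.6, 15 and 16.8 CPM in knockout 1, 2 and 3, against 12.4, 14.9 and 10.6 CPM in wildtype 1, 2 and 3. Wildtype 2 stood among the knockout libraries, and the log2 fold change was 0.26 ± 0.19 (95% interval -0.17 to 0.69, adjusted p = 0.495 in edgeR's test). Msx2 (gene ID 17702, chromosome 13, 53466881 to 53472780, minus strand), a BMP-responsive factor of skull growth, measured 9.42, 8.9 and 5.51 CPM in knockout 1, 2 and 3, against 9.7, 7.93 and 3.94 CPM in wildtype 1, 2 and 3. The lowest library of each group was the one numbered 3, and the ranges covered each other. Its log2 fold change of 0.14 ± 0.34 had the widest 95% interval of the 9 (-0.63 to 0.91, adjusted p = 0.85 in edgeR's test) and turned to -0.16 without wildtype 3, -0.0067 without knockout 1 and -0.03 with library size alone. The smallest member count in any library was the 66 of Msx2 in wildtype 3, with an exact 95% Poisson interval of 51 to 84, which covers counting error only.

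Runx1 (gene ID 12394, chromosome 16, 92601466 to 92826074, minus strand), a factor of blood stem cells that is also active in skeletal progenitors, had the highest positive fold change of the 9. It measured 65.8, 80.3 and 56.3 CPM in knockout 1, 2 and 3, against 56.6, 45 and 23.5 CPM in wildtype 1, 2 and 3. Knockout 3 and wildtype 1 were almost equal, and wildtype 3 was by far the lowest. The means of 67.5 ± 12.1 CPM in knockout and 41.7 ± 16.8 CPM in wildtype (SD, n = 3 each) gave a log2 fold change of 0.69 ± 0.29 (95% interval 0.05 to 1.34, adjusted p = 0.325 in edgeR's test). This value ran from 0.40 to 0.96 as each library was left out. It was 0.96 without wildtype 1 (adjusted p = 0.0785 in edgeR's test) and 0.55 without knockout 2 (adjusted p = 0.828 in edgeR's test). These were the lowest and highest adjusted p of those fits. Macrophage, endothelial and chondrocyte markers had median log2 fold changes of 1.13, 1.27 and 2.13 in the same comparison, and their part in the Runx1 value was not tested.

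Runx3 (gene ID 12399, chromosome 4, 135120645 to 135177990, plus strand), known for its roles in lymphocytes and maturing cartilage, was nearly flat. It measured 12.1, 12.1 and 13.6 CPM in knockout 1, 2 and 3, against 14.1, 11.6 and 11.7 CPM in wildtype 1, 2 and 3. The groups overlapped fully, and the log2 fold change of 0.01 ± 0.18 had a 95% interval of -0.39 to 0.40 (adjusted p = 0.987 in edgeR's test), with the sign turning between scalings. Lymphocyte markers were close to absent, with a sum over 12 genes of 3.54 to 10.3 CPM in knockout and 1.74 to 2.81 CPM in wildtype, Cd3d and Cd8a at 0 in all knockout libraries and Cd3e, Ms4a1, Pax5 and Nkg7 at 0 in all wildtype libraries.

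**Figure D2:**
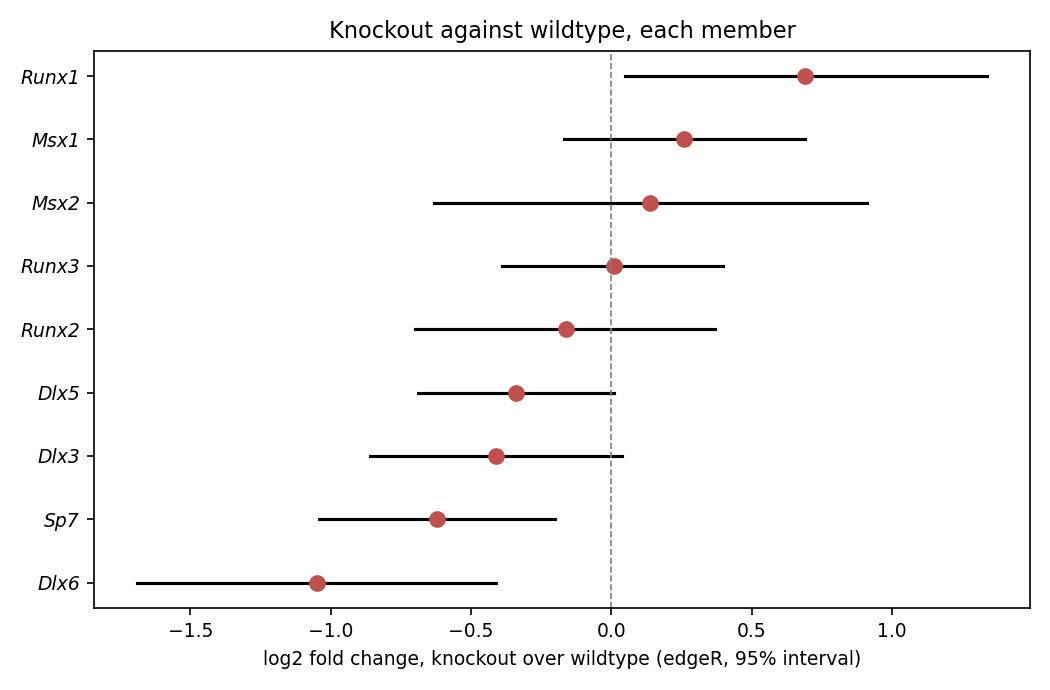
Log2 fold change of knockout over wildtype for each member (points) with its 95% interval (lines) from edgeR. The intervals of Dlx6 and Sp7 lie below 0 and that of Runx1 lies above it, from 0.05 to 1.34, while the other 6 include 0.

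The members' levels were ordered per length, as CPM per kb of joined exons. Sp7 stood first in both groups, at 43.1 ± 8.95 CPM per kb in knockout and 66.2 ± 5.36 in wildtype (SD, n = 3 each). Runx2 followed at 17.1 ± 4.43 in knockout and 19.2 ± 4.76 in wildtype. Dlx5 came next at 11.4 ± 1.02 in knockout and 14.4 ± 1.28 in wildtype, and then Dlx3 at 7.57 ± 1.32 in knockout and 10 ± 1.98 CPM per kb in wildtype. Below them the order differed between the groups. In knockout came Runx1 (5.61 ± 1), Msx1 (4.89 ± 0.512), Dlx6 (2.62 ± 1.06), Runx3 (2.51 ± 0.173) and Msx2 (2.42 ± 0.647), and in wildtype Dlx6 (5.37 ± 0.766), Msx1 (4.08 ± 0.691), Runx1 (3.47 ± 1.4), Runx3 (2.49 ± 0.284) and Msx2 (2.19 ± 0.9 CPM per kb). The means of Dlx6 and Runx3 and those of Runx3 and Msx2 in knockout, and those of Msx1 and Runx1 in wildtype, differed by less than the SD of either gene. Sp7 and Runx2 did not overlap in level per length, with the lowest Sp7 value at 37.4 and the highest Runx2 value at 24.1 CPM per kb over all 6 libraries.

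The choice of length moved the lower part of this order. With the longest protein-coding transcript in place of all joined exons, Sp7, Runx2 and Dlx5 kept the first 3 places in both groups, while Runx1 had place 4 in knockout at 11.5 ± 2.06 CPM per kb and place 5 in wildtype at 7.11 ± 2.87. Shares within the Runx family were computed with joined exons only, and not with the longest transcript. Of the level per length of joined exons summed over the 3 Runx genes, Runx2 took 62.8%, 64% and 74.8% in knockout 1, 2 and 3, against 76.2%, 75.7% and 77.3% in wildtype 1, 2 and 3. Runx1 took 25.8%, 26.5% and 15.9% in knockout, against 14.9%, 15% and 10.3% in wildtype. Knockout 3 stood close to the wildtype libraries in both shares.

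**Figure D3:**
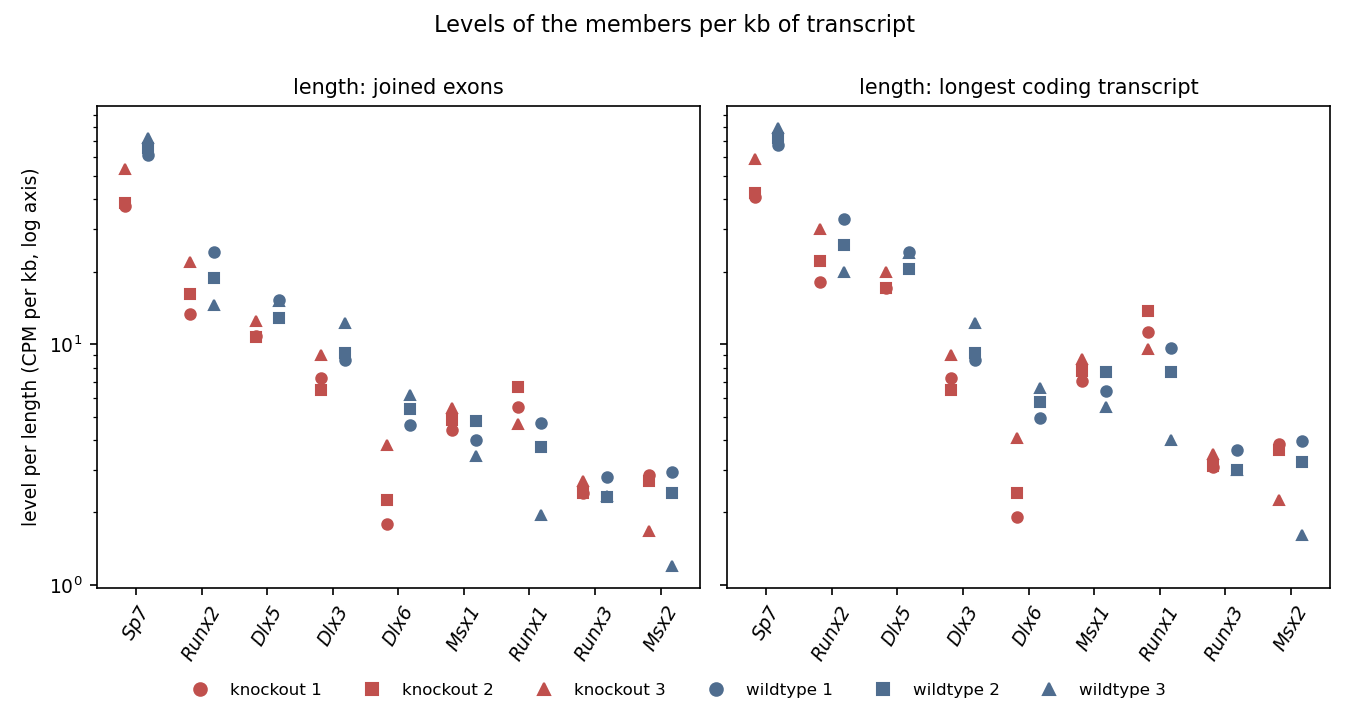
Level of each member in CPM per kb on a log axis, by library, with joined exons on the left and the longest coding transcript on the right, knockout left of wildtype for each gene. Sp7 is highest in both panels, from 37.4 to 71.9 CPM per kb of joined exons.

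Ratios of 2 members within a library do not depend on scaling between libraries, and 5 were examined with exact two-sided permutation tests, which cannot go below p = 0.1 with 3 against 3. The count of Sp7 over that of Runx2 was 1.08, 0.919 and 0.934 in knockout 1, 2 and 3, against 0.976, 1.33 and 1.89 in wildtype 1, 2 and 3. Wildtype 1 fell within the knockout range, and the mean log2 ratio differed by -0.47 (exact permutation p = 0.2), or by -0.23 without wildtype 3. Dlx6 over Dlx5 was 0.174, 0.22 and 0.319 in knockout, against 0.318, 0.438 and 0.427 in wildtype. Knockout 3 and wildtype 1 met at the border, and the mean log2 ratio differed by -0.76 (exact permutation p = 0.2).

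Runx1 over Runx2 was the ratio with no overlap. It was 0.559, 0.563 and 0.289 in knockout 1, 2 and 3, against 0.265, 0.27 and 0.182 in wildtype 1, 2 and 3, a difference in mean log2 ratio of 0.94 (exact permutation p = 0.1, the smallest possible, and 0.333 adjusted over the 5 ratios). Knockout 3 again stood nearest to the wildtype libraries. Msx1 over Msx2 ran from 1.45 to 3.04 in knockout and from 1.27 to 2.7 in wildtype (difference 0.07, exact permutation p = 0.8), and Runx3 over Runx2 from 0.07 to 0.102 in knockout and from 0.066 to 0.091 in wildtype (difference 0.18, exact permutation p = 0.5). The last difference ran from 0.04 without knockout 1 to 0.32 without knockout 3 or wildtype 3, and was 0.09 without wildtype 1.

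**Figure D4:**
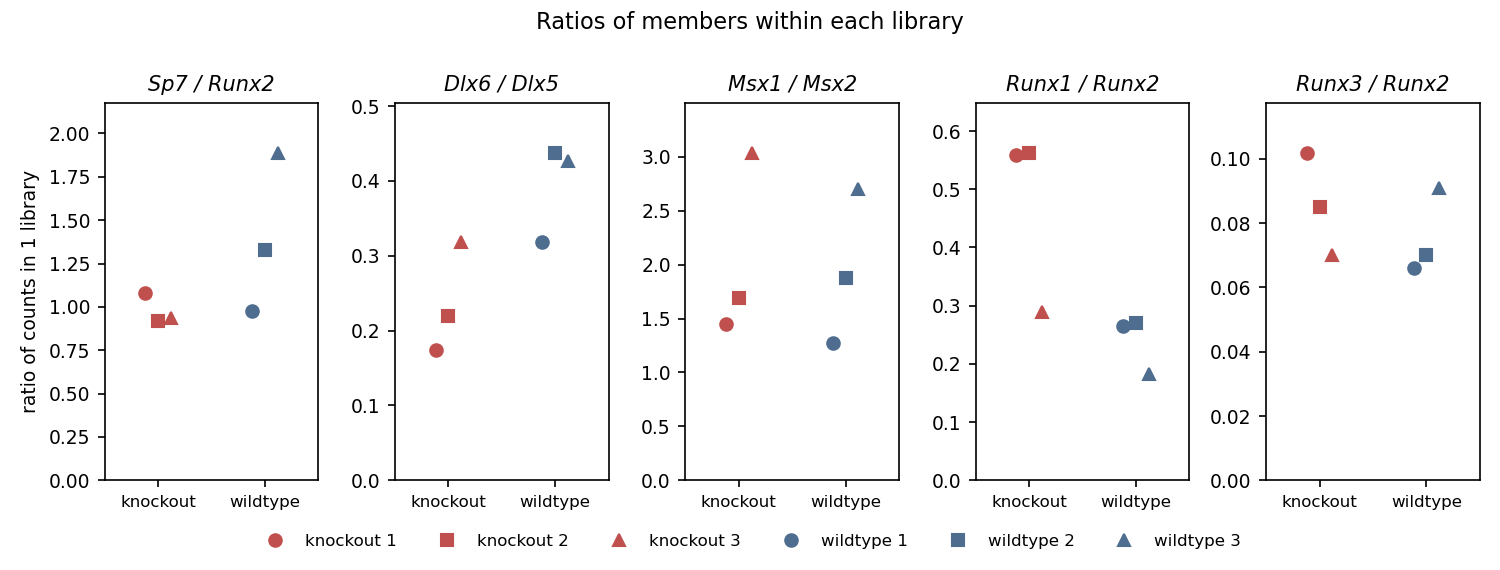
Ratio of the counts of 2 members within each library, on linear axes from 0, knockout left and wildtype right. Only the ratio of Runx1 to Runx2 shows no overlap, at 0.289 to 0.563 in knockout and 0.182 to 0.27 in wildtype.

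The protein partners of the Runx factors were measured next, as a list of 18 genes of cofactors and corepressors. None passed the threshold over all genes, and an unadjusted p under 0.05 was reached by 2 that were higher and 1 that was lower. At that p, 8.26% of all genes were higher and 6.35% lower. Cbfb (gene ID 12400), the obligate partner subunit, was nearly level at 121, 121 and 142 CPM in knockout 1, 2 and 3, against 126, 114 and 111 CPM in wildtype 1, 2 and 3 (log2 fold change 0.13 ± 0.15). Ets1, which binds DNA jointly with Runx proteins, measured 57.1 ± 17.9 CPM in knockout and 29.3 ± 12.9 CPM in wildtype (0.96 ± 0.35). The groups overlapped for Ets1, and for the Runx2 corepressor Hdac4 at 13 ± 1.31 CPM in knockout and 8.49 ± 3.17 CPM in wildtype (0.60 ± 0.26). Among genes of the Groucho family, Tle5 measured 97.2 ± 6.67 CPM in knockout and 135 ± 30.7 CPM in wildtype (-0.48 ± 0.19), with overlap. Tle1, at 21.9 ± 2.77 CPM in knockout and 16.4 ± 3.08 CPM in wildtype (0.42 ± 0.20), was the 1 gene of the list with every knockout library above every wildtype library. Over all genes, 10.6% had that pattern.

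Regulators that raise or restrain Runx2 and osterix activity gave 21 tested genes of 22, of which 3 (Sox9, Nfatc1 and Twist1) were higher at an unadjusted p under 0.05, 0 were lower, 5 had all knockout libraries above all wildtype libraries and none passed the adjusted threshold. Over all genes, 8.26% were higher at that p and 10.6% had all knockout libraries above. The cartilage factor Sox9, which opposes Runx2, measured 93.3, 68.4 and 64.2 CPM in knockout 1, 2 and 3, against 42.4, 32.9 and 12.9 CPM in wildtype 1, 2 and 3 (log2 fold change 1.35 ± 0.36, adjusted p = 0.273 in edgeR's test). It is also a chondrocyte marker, and that list's median was 2.13. Nfatc1, an osterix partner and osteoclast factor, measured 89.9 ± 5.06 CPM in knockout and 50.4 ± 20.3 CPM in wildtype (0.83 ± 0.27). Twist1, which holds back Runx2 in the skull, measured 208, 216 and 278 CPM in knockout 1, 2 and 3, against 171, 191 and 157 CPM in wildtype 1, 2 and 3 (0.44 ± 0.18, adjusted p = 0.322 in edgeR's test). All 3 genes had every knockout library above every wildtype library, with a narrow gap for Twist1 between 208 CPM in knockout 1 and 191 CPM in wildtype 2. The inhibitor Id4 measured 12.1 ± 2.31 CPM in knockout and 8.02 ± 2.57 CPM in wildtype (0.58 ± 0.27), with overlap.

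Among close paralogs and neighbouring genes, only 9 of 17 reached the filter on low counts, and none of these 9 had an unadjusted p under 0.05. Dlx1, Dlx2 and Dlx4 each had at most 16 counts in a library and Msx3 at most 1. Of the Sp family, Sp1 and Sp3, which occur in nearly all cells, measured 55.9 ± 6.33 and 50.6 ± 7.36 CPM in knockout and 53.6 ± 11.8 and 52.1 ± 9.71 CPM in wildtype. Sp6, Sp4, Runx1t1 and Dlx6os1 had the smallest p of the list, with log2 fold changes of 1.20 ± 0.71, -0.23 ± 0.20, 0.57 ± 0.45 and -0.17 ± 0.31. Sp6 averaged 0.923 ± 0.279 CPM in knockout and 0.377 ± 0.317 CPM in wildtype.

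Genes known as targets of Runx2 and osterix leaned lower, with 15 of 22 negative beside 6843 of 13505 over all genes, and a median log2 fold change of -0.14, beside -0.01 over all genes. This median was -0.31 without knockout 3, -0.06 without knockout 2, -0.06 without wildtype 3 and -0.08 without knockout 1. The median was 0.07 with osteoblast marker scaling, where the median of all genes was 0.25. All 10 genes used for that scaling are among these 22 targets. Their average is held level by it, so this value cannot show whether the list shifted. An unadjusted p under 0.05 was reached by 4 that were lower and 1 that was higher, and none passed over all genes. Over all genes, 6.35% were lower and 8.26% higher at that p. All knockout libraries were below all wildtype libraries in 9.81% of all genes, and above them in 10.6%. Phospho1, a phosphatase that starts mineral formation, measured 43.1, 30 and 47.1 CPM in knockout 1, 2 and 3, against 54.9, 59 and 66.6 CPM in wildtype 1, 2 and 3 (-0.59 ± 0.19), with no overlap. Dmp1, a matrix protein of osteocytes, was the gene higher in every knockout library, at 287 ± 28.4 CPM in knockout and 214 ± 16.5 CPM in wildtype (0.42 ± 0.16). Pth1r, the parathyroid hormone receptor, measured 217 ± 45.7 CPM in knockout and 308 ± 58.8 CPM in wildtype (-0.51 ± 0.22). Bglap3, a copy of the osteocalcin gene that can share reads with Bglap and Bglap2, measured 0.821 ± 0.438 CPM in knockout and 4.34 ± 4.21 CPM in wildtype (-2.43 ± 0.73), its wildtype mean resting on wildtype 1 at 9.14 CPM. Osteocalcin itself, Bglap, measured 518, 433 and 1006 CPM in knockout 1, 2 and 3, against 582, 543 and 1398 CPM in wildtype 1, 2 and 3 (-0.37 ± 0.42), so that the library numbered 3 was the highest in each group.

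Signals upstream were read from 17 genes of the BMP pathway, which drives Dlx5, Msx2 and Sp7. None passed over all genes, though 2 with higher values and 0 with lower ones had an unadjusted p under 0.05. Over all genes, 8.26% were higher and 6.35% lower at that p. Bmp2, a ligand made by osteoblasts, measured 47.2, 51.1 and 54.3 CPM in knockout 1, 2 and 3, against 39.6, 32.7 and 26 CPM in wildtype 1, 2 and 3, a log2 fold change of 0.63 ± 0.18 (adjusted p = 0.273 in edgeR's test). The groups did not overlap for Bmp2, and 10.6% of all genes had every knockout library above every wildtype library. Smad7, an inhibitor of the pathway, measured 54.1 ± 11.5 CPM in knockout and 38.6 ± 7.39 CPM in wildtype (0.49 ± 0.21). The receptor Acvr2a measured 12.8 ± 1.59 CPM in knockout and 9.01 ± 2.58 CPM in wildtype (0.50 ± 0.24), and the receptor Bmpr1b 2.1 ± 1.43 CPM in knockout and 0.522 ± 0.663 CPM in wildtype (1.92 ± 0.99). The groups overlapped for Smad7, Acvr2a and Bmpr1b, and Bmpr1b had only 6 counts in knockout 3 and 0 in wildtype 2. The medians of this list, of the Runx partners and of the regulators were 0.16, 0.17 and 0.18, and turned to -0.06, -0.05 and -0.02 with library size alone, where the median of all genes was -0.21. Leaving out 1 library, the BMP median was 0.02 without wildtype 2 and 0.05 without knockout 3. The partners' median was 0.08 without wildtype 3 and 0.33 without wildtype 1, and the regulators' median 0.07 without wildtype 3, 0.09 without knockout 2 and 0.10 without wildtype 2.

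Genes whose pattern over the 6 libraries was most like that of a member were found by the root mean square difference of log2 CPM, each gene centred, among 9415 genes that averaged 5 CPM or more. Nearest to Sp7 were Ccdc12 (0.036), Nrbf2 (0.047) and Klhl25 (0.059), where the median over genes was 0.404. Nearest to Dlx6 were Csrnp3 (0.147), Dapk2 (0.163) and Osgepl1 (0.204), with a median of 0.657. Runx2 had Ano1 (0.096), Pcdhga10 (0.107) and Elmo1 (0.109) as nearest genes, with a median of 0.393, and Runx1 had Nol4l (0.065), Psd (0.076) and Scube3 (0.087), with a median of 0.605. Among the members themselves, Sp7 was nearest to Dlx3 (0.164) and Dlx5 (0.2), and farthest from Runx1 (0.882). Dlx6 was nearer to Sp7 (0.281) than to its neighbour Dlx5 (0.471), and Runx2 was nearer to Runx3 (0.231) than to Sp7 (0.369). These distances describe 6 libraries only.

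**Figure D5:**
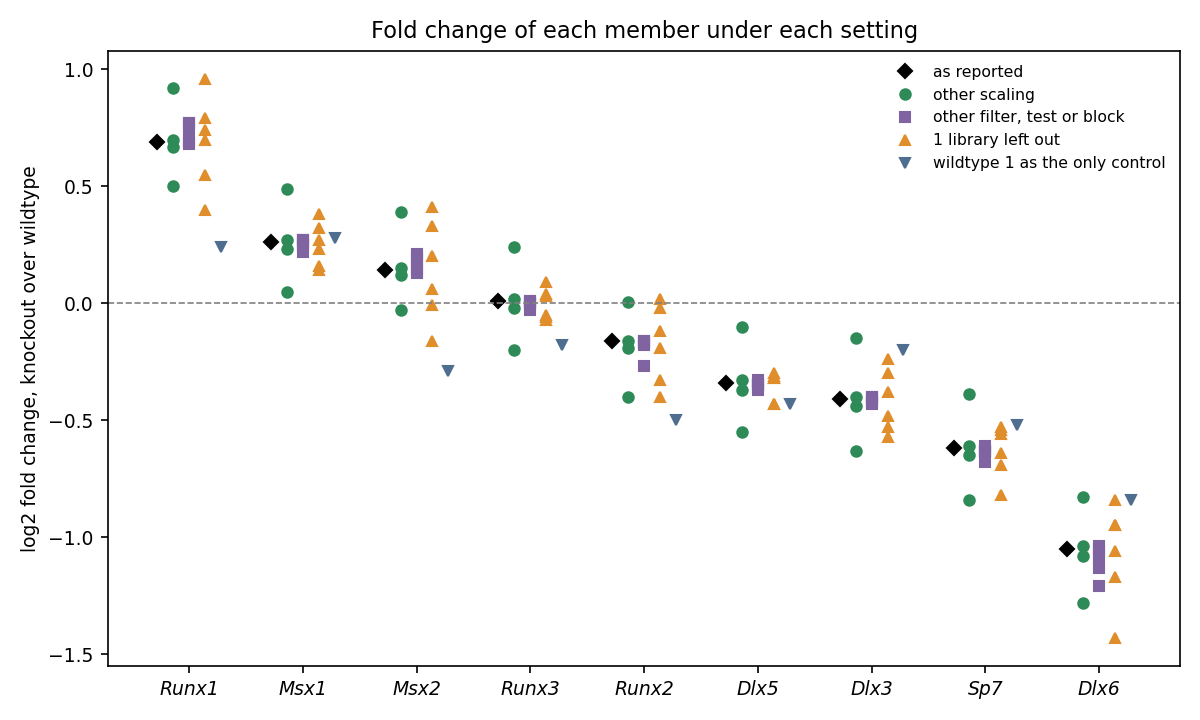
Log2 fold change of knockout over wildtype for each member under every setting, with black diamonds for the values given above and other symbols for other scalings, other filters or tests, each library left out and wildtype 1 as the only control. Sp7 stays between -0.84 and -0.39 and Dlx6 between -1.43 and -0.83, while the points of Runx2, Runx3 and Msx2 lie on both sides of 0.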

How the data were processed

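The authors deposited read counts by gene as whole numbers, not normalized, for 27179 gene IDs in 6 libraries (3 knockout, 3 wildtype). The submitters' processing notes name CASAVA 1.7, Subread, featureCounts and build mm10, and 0 columns belonged to other samples. RefSeq (GRCm38.p6, the same assembly) named 25275 IDs, and exon lengths came from GENCODE M21. Genes were filtered with filterByExpr (13505 kept, all 9 members among them), scaled with TMM factors of 0.813 to 1.09 and compared by the two-sided quasi-likelihood test in edgeR 4.0.16 in R 4.3.3 on all 6 libraries without covariates, with Benjamini-Hochberg adjustment over all genes and a threshold of 0.05. The fit was tested on simulated data. Chi-square per degree of freedom between libraries was 18.3 or more, so all 6 were kept as distinct. Fold changes are log2 of knockout over wildtype ± SE.

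The members and lists (5 pathway lists, 13 marker lists) were chosen with earlier results of these data known. Text names the members, up to 4 genes of smallest p per pathway list, Cbfb, Twist1, Dlx6os1 and Bglap (1 further gene of this rule is not reported here), and the 3 genes nearest in pattern to each of Sp7, Runx2, Dlx6 and Runx1; Sp1, Sp3, Dlx1, Dlx2, Dlx4 and Msx3 were chosen after their values were seen. Runx2os1, Runx2os2 and Runx2os3 matched no ID. Alternatives were other scalings and filters, DESeq2 1.42.0, limma 3.58.1 voom, a replicate block and leaving out each library; osteoblast marker scaling, wildtype 1 as the only control and the second length were chosen after seeing the data.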

Additional observations from a re-analysis of the deposited data

How the results depend on the processing

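Over the 17 other settings of the fit, Runx1, Msx1, Dlx3, Dlx5, Sp7 and Dlx6 kept their sign. The count of genes called was 24 without the filter on low counts, 248 with DESeq2, 236 with the replicate block and 1 with osteoblast marker scaling; it ran from 0 to 409 when each library was left out, the 409 being without wildtype 1. Sp7 passed with DESeq2 (-0.61, adjusted p = 0.0496) and Dlx6 with the replicate block (-1.09, adjusted p = 0.0462), so that 1 member was called in each. For lists, DESeq2 called 1 regulator (Sox9) and 1 target (Bglap3), the block 1 Runx partner (Ets1) and 1 regulator (Sox9), and the leave-one-out fits 0 to 1 regulator (Nfatc1, without wildtype 1). The cause of these calls was not tested.

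Runx3 turned to -0.02 with upper-quartile factors, -0.20 with library size alone, -0.0048 without the filter, -0.00098 with the stricter filter, -0.002 with voom, -0.03 with voom quality weights and -0.18 with wildtype 1 as the only control, and ran from -0.07 to 0.09 with each library left out. Msx2 turned to -0.03 with library size alone and -0.29 with wildtype 1 as the only control (-0.16 to 0.41 with each library left out), and Runx2 to 0.0041 with osteoblast marker scaling (-0.40 to 0.02). The ratio of Msx1 to Msx2 ran from -0.25 to 0.33 (log2 difference). Without each library in turn, Runx1 ran from 0.40 to 0.96, Sp7 from -0.82 to -0.53, Dlx6 from -1.43 to -0.84, Dlx5 from -0.43 to -0.30, Dlx3 from -0.57 to -0.24 and Msx1 from 0.14 to 0.38. With the longest protein-coding transcript, wildtype levels per kb were 7.11 (Runx1), 26.3 (Runx2), 3.21 (Runx3), 72.6 (Sp7), 22.9 (Dlx5) and 6.53 (Msx1).

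In the labels, knockout and wildtype libraries of the same number are linked by that number alone. Their deviations correlated at 0.12, -0.07 and 0.22 (number 1, 2 and 3), and knockout 2 correlated best with wildtype 1 (0.35). With deviations taken from the mean of 3 libraries per group, these values cannot decide whether such libraries were paired. The smallest member count, 66, carried a counting interval of 51 to 84, and the coefficient of variation between libraries of 1 group, estimated over all genes, was 24.2%.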
